A study of Mus musculus with 4 samples.

Results

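The epidermal growth factor (EGF) family comprises secreted or membrane-anchored ligands, the ErbB receptor tyrosine kinases they activate, and proteins that shut the receptors off. Messenger RNA of 8 members of this family was followed in engineered mouse muscle, a 3D tissue made in the laboratory. The members were chosen by name: the ligand genes Hbegf, Areg, Ereg, Tgfa, Btc and Nrg1, the receptor gene Egfr, and Errfi1, which encodes a cytoplasmic inhibitor of the receptors. Every probe of the arrays that carried 1 of these names was used, giving 10 probes for 8 genes, out of 39429 probes for 31896 gene names.

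The tissues had been given 30 min of acute EPS, read here as electrical pulse stimulation, or no acute EPS, and RNA was taken at 0 min or 5 h. The 4 groups were EPS at 0 min, no EPS at 0 min, EPS at 5 h and no EPS at 5 h, with 1 array each on 1 slide. There were no replicates, so no test between groups was possible and every difference describes these 4 arrays. The labels give no cell line, donor animal, age or stimulation settings, and whether tissues were pooled is not given in the sources used here.

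The ligands are made as membrane-bound precursors and are released by metalloproteases. Amphiregulin, epiregulin, transforming growth factor alpha, betacellulin and HB-EGF bind the EGF receptor, and epiregulin, betacellulin and HB-EGF bind ErbB4 as well. Neuregulin 1 binds ErbB3 and ErbB4 and, in muscle, is known for its part in the neuromuscular synapse and in the formation of muscle spindles. Active receptors switch on the MAP kinase cascade. The protein encoded by Errfi1 (Mig6) binds the receptor kinase domain and blocks it, a feedback loop since the gene is itself switched on by receptor signalling.

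Values are given as levels: the authors' background-subtracted spot signal was divided by its own 75th percentile on that array (1093 to 1492 on the 4 arrays) and put on the log2 scale. Genes well above background numbered 19164 to 19423 per array. Unless marked as an SD between spots, the error given with a difference is that of the scanner software's model. This error is about 10% of the signal of a bright spot, or 0.20 for a log2 difference between 2 arrays. It covers the spot and not the spread between tissues. All 16 skeletal muscle markers examined, among them Acta1, Ckm and Myog, were above background on all 4 arrays. Of 8 leukocyte markers 4 were, although the general leukocyte marker Ptprc was above background on none. In RNA from whole tissue, fewer cells of a type and less RNA per cell cannot be told apart.

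Of the 8 members, 6 were well above background on all 4 arrays. Btc passed on the 5 h arrays alone, and Tgfa on none. The ligand genes Hbegf, Areg, Ereg and Nrg1 and the receptor gene Egfr all had their highest level with EPS at 5 h and their lowest without EPS at 0 min. Errfi1 had its highest level with EPS at 0 min and its lowest without EPS at 5 h.

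**Figure D1:**
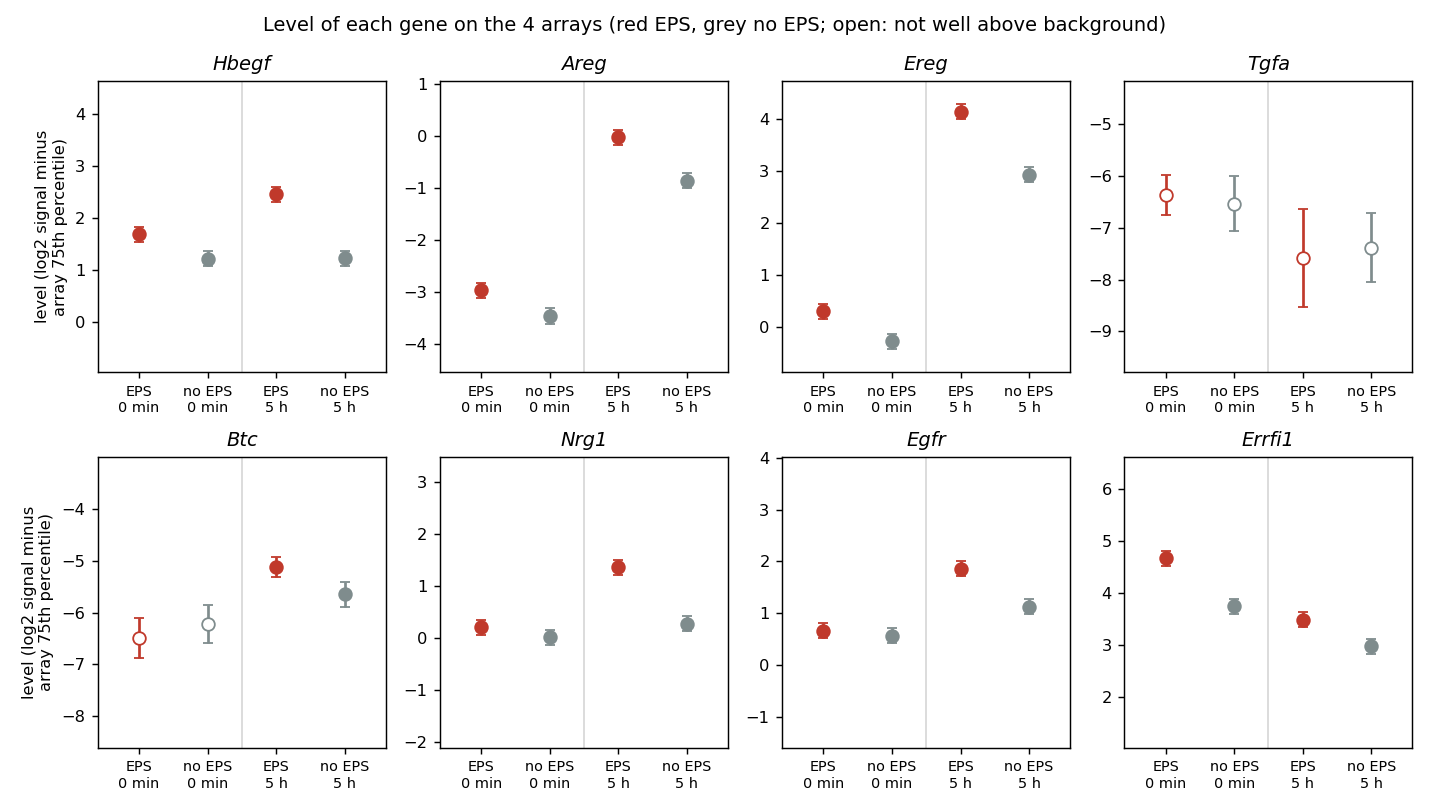
Level of each member (log2 of the signal over its 75th percentile) on the 4 arrays, red for EPS and grey for no EPS, with the scanner software's error as bars and open circles where the gene was not well above background. Each panel spans the same number of log2 units. Ereg and Areg are higher on both 5 h arrays, and Errfi1 is highest with EPS at 0 min.

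Right after stimulation, all 6 measured members were higher with EPS than without by their brightest probes. None reached 2-fold, the size rule used in place of a test. Errfi1 was nearest, at 1.90-fold. For Egfr (0.09) and Nrg1 (0.19) the log2 difference was within the software's error of 0.20. The dimmer Egfr probes read lower with EPS, by -0.05 and -0.19. Of 18589 measured genes, 0.549% were at least 2-fold higher and 0.791% at least 2-fold lower at this time. The median log2 difference of the 6 members was 0.48, against 0.02 over all genes. The middle 95% of genes lay between -0.67 and 0.52.

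At 5 h, Hbegf, Ereg and Nrg1 were 2-fold higher or more with EPS than without, 3 of the 7 members measured, and none was 2-fold lower. Over all 18543 genes the shares were 0.69% higher and 0.523% lower, 128 against 97 genes, or 161 against 74 where arrays were centred on their median. All 7 were above 0 by their brightest probes, with a median of 0.84 against -0.03 over all genes. The dimmer Egfr probes read -0.01 and 0.19. The members had been chosen with earlier results of these arrays known, so the counts describe them and set them apart from no other group.

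**Figure D2:**
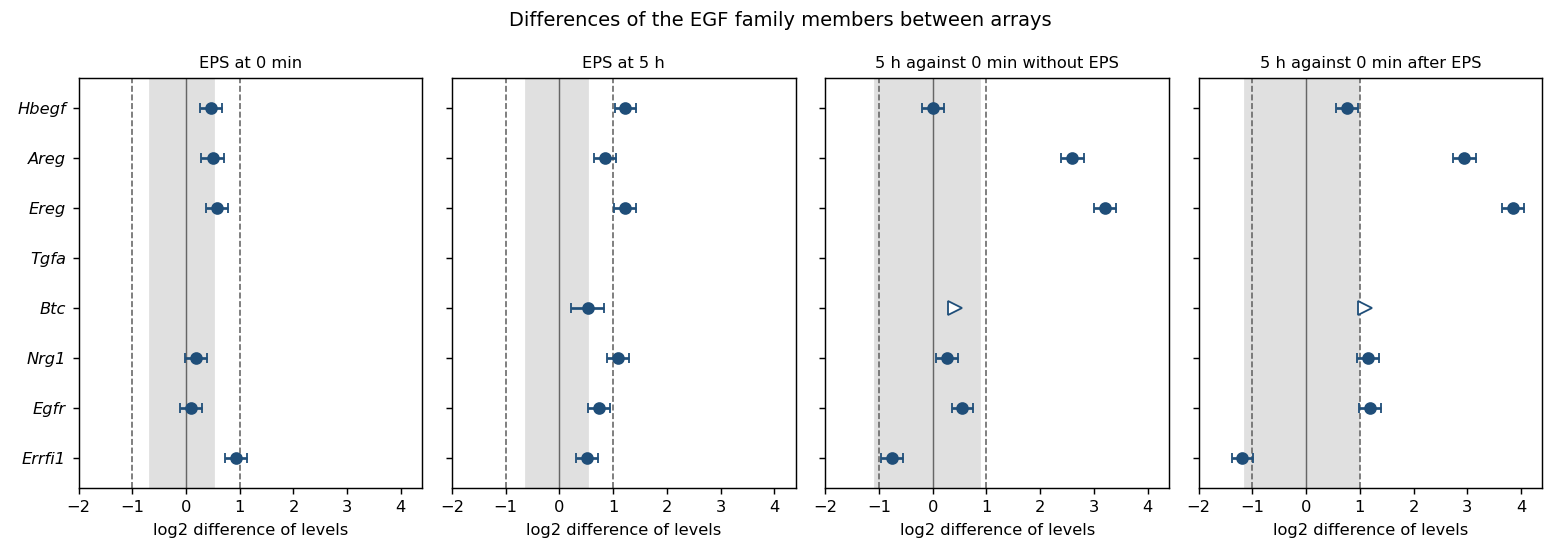
Log2 difference of levels for each member in the 4 comparisons. Bars are the software's error, dashed lines mark 2-fold and the grey band holds the middle 95% of all measured genes. Open triangles are for Btc, which was measured at 5 h alone. They set its 5 h level against the dimmest probe well above background on the array of the earlier time. These triangles are not strict lower bounds. Tgfa is not shown as a value because it was not well above background. At 5 h Hbegf, Ereg and Nrg1 lie above the upper dashed line, and over time Areg and Ereg lie far outside the band.

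Hbegf encodes heparin-binding EGF-like growth factor, a ligand that also acts in its membrane-bound form. Its level was 1.69 with EPS and 1.22 without at 0 min. At 5 h it was 2.46 with EPS and 1.23 without. The unstimulated arrays were thus nearly level with each other, and the EPS array at 5 h stood above the other 3.

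In spot signal, which is not scaled between arrays, Hbegf read 8184 with EPS and 2993 without at 5 h, and 3518 and 3164 at 0 min. The EPS difference was 0.47 ± 0.20 (software error) at 0 min and 1.23 ± 0.20 at 5 h. At 5 h this was a 2.35-fold difference, which ranked 75 from the top of 18543 genes. From 0 min to 5 h without EPS the difference was 0.01 ± 0.20, well inside the error. After EPS it was 0.77 ± 0.20. The single Hbegf probe maps to chr18:36664738-36664797 on the minus strand (build mm9), at base 2158 of the transcript. Exon and UTR annotation of the probes was not given in the sources used here.

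Nrg1 encodes neuregulin 1. Like Hbegf, Nrg1 was highest with EPS at 5 h and lowest without EPS at 0 min, with the middle arrays in reversed order. Its level was 0.20 with EPS and 0.01 without at 0 min, and 1.36 with EPS and 0.27 without at 5 h. The EPS array at 5 h again stood above the other 3, which lay within 0.26 of each other. The EPS difference was 1.09 ± 0.20 at 5 h, a 2.13-fold difference, and 0.19 ± 0.20 at 0 min, within the error. Without EPS the difference of 5 h over 0 min was 0.26 ± 0.20, and after EPS it was 1.16 ± 0.20.

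The difference between the EPS effects, 5 h minus 0 min, was 0.90 ± 0.29 for Nrg1 and 0.76 ± 0.29 for Hbegf. No member reached 2-fold here, in either direction, against 1% of 18105 genes that were higher and 0.994% that were lower (1.99% together). Nrg1 has many isoforms, and the array reads it with 1 probe, at chr8:32928500-32928559 on the minus strand (mm9). The sequence is shown because it fixes which part of the transcript the Nrg1 values refer to, the region around base 2043.
Nrg1 probe: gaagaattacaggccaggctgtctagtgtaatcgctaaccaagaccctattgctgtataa

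Ereg encodes epiregulin. Its level was 0.30 with EPS and -0.27 without at 0 min. At 5 h it was 4.15 with EPS and 2.93 without. Both 5 h arrays stood above both 0 min arrays, and at each time the EPS array was the higher.

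The signal of Ereg read 26483 with EPS and 9778 without at 5 h, and 1349 and 1127 at 0 min. Between the arrays without EPS, 5 h exceeded 0 min by 9.23-fold (log2 difference 3.21 ± 0.20, rank 12 of 18484 genes). After EPS the figure was 14.4-fold (3.85 ± 0.20, rank 7 of 18470). The EPS difference was 0.58 ± 0.20 at 0 min and 1.22 ± 0.20 at 5 h, or 2.32-fold, and their difference was 0.64 ± 0.29. The probe lies at chr5:91522553-91522612 on the plus strand (mm9), at base 4013 of the transcript.

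Areg encodes amphiregulin and is a neighbour of Ereg on chromosome 5. Its level was -2.96 with EPS and -3.46 without at 0 min, and -0.02 with EPS and -0.86 without at 5 h. The order of the 4 arrays was the same as for Ereg. The signal was 1475 with EPS and 706 without at 5 h, against 140.0 and 124 at 0 min.

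Between the arrays without EPS, 5 h exceeded 0 min by 6.07-fold for Areg (2.60 ± 0.21, rank 29 of 18484). After EPS it was 7.71-fold higher (2.95 ± 0.21). The EPS difference was 0.84 ± 0.20 at 5 h, or 1.79-fold, and 0.50 ± 0.21 at 0 min. The difference between them, 0.35 ± 0.30, was little more than its error. The Areg probe lies at chr5:91570090-91570149 on the plus strand (mm9), beginning at base 426 of the transcript, and is shown since all Areg values rest on it.
Areg probe: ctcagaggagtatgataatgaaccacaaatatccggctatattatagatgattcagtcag

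Without EPS, Areg and Ereg were 2-fold higher or more at 5 h than at 0 min, 2 of the 6 members measured, and none was 2-fold lower. Over 18484 genes the shares were 1.74% higher and 2.96% lower (4.7% together). After EPS, Areg, Ereg, Nrg1 and Egfr were 2-fold higher or more, 4 of 6, and Errfi1 alone was 2-fold lower or more. Over 18470 genes the shares were 2.4% higher and 3.65% lower (6.05% together). The split over all genes moved with the scaling: 322 higher and 547 lower without EPS became 470 and 388 with median centring. After EPS, 443 and 674 became 737 and 414 with median centring and 530 and 518 with quantile normalization. The comparisons of EPS and of time share arrays, so their values for 1 gene are not independent.

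Btc, which encodes betacellulin, was dim. Its level was -5.12 with EPS and -5.65 without at 5 h, and the difference of 0.53 ± 0.31 corresponds to 1.44-fold. At 0 min it was not well above background with EPS or without. In its place at 0 min, the level of the dimmest probe still well above background on the same array was taken. Against that level, Btc at 5 h was 2.13-fold higher after EPS and 1.33-fold higher without EPS, with no allowance for spot error. These are not strict lower bounds, since a brighter probe could fall short of well above background. The endothelial marker Tek did so without EPS at 0 min, at -5.88 against the -6.07 used for Btc.

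Tgfa, which encodes transforming growth factor alpha, was printed 10 times on each array and was not well above background on any. After outlier spots were left out, 1 of 8 spots was above background with EPS and 2 of 9 without EPS at 0 min, and 0 of 9 on each 5 h array. The spot signal averaged 13.1 with EPS and 14.6 without at 0 min, and 7.80 and 7.66 at 5 h. The SD between spots was 0.42 to 0.82 on the log2 scale. No fold is given for it.

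Egfr encodes the EGF receptor itself. The brightest of its 3 probes was printed 10 times, and all 10 spots were above background on every array. By this probe the level of Egfr was 0.67 ± 0.05 with EPS and 0.57 ± 0.06 without at 0 min, and 1.86 ± 0.05 with EPS and 1.13 ± 0.03 without at 5 h (SD between 10 spots of 1 labelled RNA). The arrays at 5 h stood above those at 0 min, the EPS array furthest.

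The EPS difference of Egfr by this probe was 0.73 ± 0.06 at 5 h (SD between spots, 1.66-fold) and 0.09 ± 0.08 at 0 min. From 0 min to 5 h the difference was 0.55 ± 0.07 without EPS and 1.19 ± 0.07 after EPS, or 2.28-fold. These ± values are also SDs between spots. The software's error, given for the other members, was 0.20 for each of these differences, and the 0.09 at 0 min was within it. The probe is assigned by the array design to transcript variant 1, at base 5869, and maps to chr11:16813815-16813874 (mm9).

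The other Egfr probes gave smaller differences. Both are assigned to transcript variant 2 and lie upstream on chromosome 11. The probe at base 2188 read -1.97 with EPS and -1.92 without at 0 min, and -1.84 on both 5 h arrays. The probe at base 2099 read -1.87 with EPS and -1.69 without at 0 min, and -1.36 with EPS and -1.55 without at 5 h. By the probe at base 2099 both 5 h arrays stood above both 0 min arrays, with EPS at 5 h the highest, and by the probe at base 2188 the 4 arrays differed by less than the software's error. By the probe at base 2188, the EPS difference at 5 h was -0.01 ± 0.20 and the difference of 5 h over 0 min after EPS was 0.12 ± 0.20. By the probe at base 2099 these differences were 0.19 ± 0.20 and 0.51 ± 0.20. Each of the 2 had 1 spot per array, well above background on all 4 arrays.

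With the mean of the 3 probes, the Egfr difference of 5 h over 0 min after EPS was 0.61, under 2-fold, and the EPS difference at 0 min changed sign to -0.05. The 2-fold difference of Egfr over time therefore rests on the variant 1 probe. Whether these probes tell the variants apart was not tested. Both sequences are shown as the places where the Egfr readings part from that of the brightest probe; the first maps to chr11:16787172-16787231 and the second to chr11:16783556-16783615, on the plus strand (mm9).
Egfr probe at base 2188: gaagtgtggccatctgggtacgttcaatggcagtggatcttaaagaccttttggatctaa
Egfr probe at base 2099: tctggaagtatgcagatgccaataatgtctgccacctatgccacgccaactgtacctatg

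**Figure D3:**
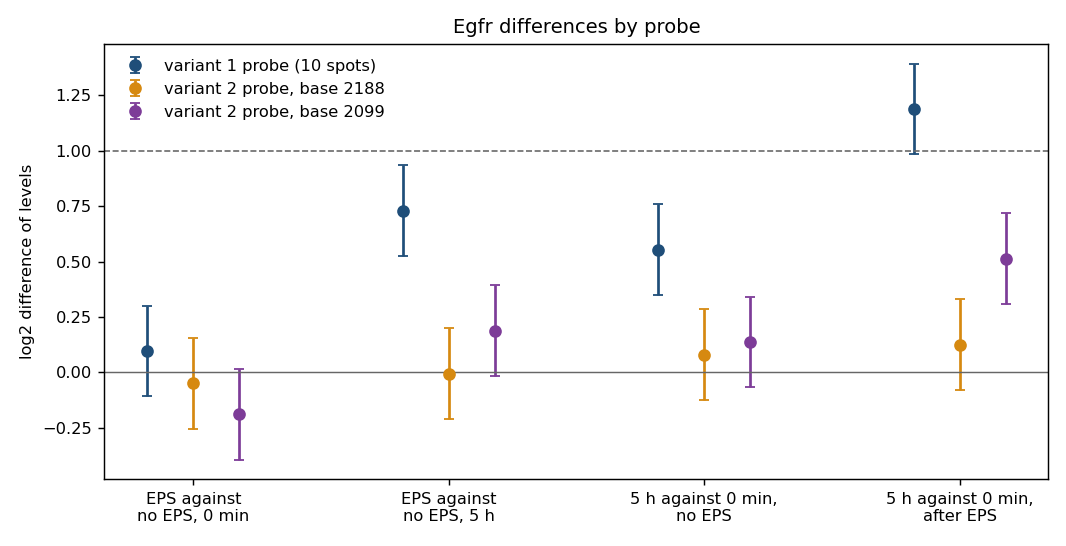
Log2 difference of levels for the 3 Egfr probes in each comparison, with the software's error as bars and a dashed line at 2-fold. The variant 1 probe gives the highest value in every comparison, reaching 1.19 after EPS over time, where the variant 2 probes give 0.12 and 0.51.

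Errfi1, the receptor inhibitor, ran the other way in time. Its level was 4.67 with EPS and 3.74 without at 0 min, and 3.49 with EPS and 2.98 without at 5 h. At each time the EPS array was the higher, and both 0 min arrays stood above both 5 h arrays. The signal was 27893 with EPS and 18255 without at 0 min, and 16755 and 10089.8 at 5 h.

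The EPS difference of Errfi1 was 0.93 ± 0.20 at 0 min, or 1.90-fold (rank 128 of 18589 genes), and 0.51 ± 0.20 at 5 h, or 1.43-fold. The 5 h level was 1.70-fold lower than that at 0 min without EPS (-0.77 ± 0.20) and 2.27-fold lower after EPS (-1.18 ± 0.20). The difference between the EPS effects was -0.42 ± 0.29, the only value below 0 among the 6 members measured on all 4 arrays. The probe is at chr4:150242886-150242945 on the plus strand (mm9).

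Promoter sequences of 5 members (Areg, Btc, Tgfa, Egfr and Errfi1) were read from a table of promoters (build GRCm38.p6). It held 6 windows of 300 bases for them, each from 250 before to 50 after a start site. Ereg and Nrg1 had no entry in that promoter table, and Hbegf was not searched. The windows were searched for the cyclic AMP response element TGACGTCA and the AP-1 site TGANTCA on both strands, and for TATAAA on the gene's strand. TGACGTCA was found once in the Areg window and once in 1 of the 2 Errfi1 windows, and in 1.79% of all 32851 windows. Relative to the start site it began at -61 in Areg and at -51 in Errfi1. TATAAA was found in the same 2 windows, beginning at -31 and -28, and in 8.32% of all windows. TGANTCA was in none of the 6 windows and in 7.81% of all. These are matches of letters and show no binding.

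The Areg and Errfi1 windows are printed because Areg and Errfi1, which ran opposite ways in time, are, of the 5 members searched, those that hold both motifs. The first is chr5:91139349-91139648 and the second chr4:150854820-150855119, both on the plus strand (GRCm38.p6), and the capitals mark TGACGTCA and TATAAA.
Areg promoter: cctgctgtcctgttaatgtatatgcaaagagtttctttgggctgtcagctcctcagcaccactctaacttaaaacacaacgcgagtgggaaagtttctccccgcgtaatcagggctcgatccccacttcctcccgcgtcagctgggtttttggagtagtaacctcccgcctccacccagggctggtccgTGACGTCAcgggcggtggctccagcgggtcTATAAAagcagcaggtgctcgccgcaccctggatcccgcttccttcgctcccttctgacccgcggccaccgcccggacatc
Errfi1 promoter: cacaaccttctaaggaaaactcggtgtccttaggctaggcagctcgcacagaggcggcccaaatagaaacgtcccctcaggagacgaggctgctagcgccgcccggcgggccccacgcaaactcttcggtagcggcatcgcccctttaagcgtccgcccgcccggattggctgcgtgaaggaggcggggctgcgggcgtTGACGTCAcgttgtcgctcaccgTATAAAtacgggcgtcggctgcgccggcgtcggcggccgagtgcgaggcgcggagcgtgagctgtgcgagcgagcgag

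The rest of the pathway was described by 6 lists with 73 genes, of which 68 were measured in each comparison. With EPS, 1 of 68 was at least 2-fold higher at 0 min and 1 higher and 1 lower at 5 h, with medians of 0.04 and 0.06. Either direction together held 1.34% of all genes at 0 min and 1.21% at 5 h.

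Among the other ligands, Egf and epigen (Epgn) were measured and differed by 0.01 and 0.04 with EPS at 0 min and by -0.05 and -0.09 at 5 h. Nrg2, Nrg3 and Nrg4 were not well above background on any pair of arrays compared. Of the other receptors, Erbb2 differed by -0.19 at 0 min and -0.02 at 5 h, and Erbb3, which binds neuregulin, by -0.74 and -0.07 at a dim level of -5.80 to -5.06. Erbb4 was not measured in any comparison.

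Of 13 genes for shedding and partners of the ligands, Adam12, a metalloprotease, was 2-fold lower with EPS at 5 h (-1.26). Its probes disagreed, with a mean of -0.13, and under normexp background correction it was at -0.75. Adam17, a protease that releases several of these ligands, differed by 0.11 at 0 min and 0.17 at 5 h. Cd9 and Adam19, named for their high signal, differed by 0.11 and -0.02 at 5 h. After EPS, Cd44, a surface glycoprotein that presents HB-EGF, was higher at 5 h than at 0 min by 1.02, and Rhbdf2, which escorts Adam17 to the cell surface, by 1.04. Without EPS these differed by 0.74 and 0.96. After EPS, Cd44 was at 0.55 with the mean of its probes and Rhbdf2 at 0.89 under normexp, both under 2-fold.

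None of 18 adaptor and relay genes reached 2-fold with EPS at either time. Stat3, named for its high signal, differed by -0.41 at 5 h with EPS, and was higher by 1.07 at 5 h than at 0 min without EPS (0.98 with quantile normalization). After EPS its difference in time was 0.36. None of 15 genes that dampen the receptors reached 2-fold with EPS. With EPS at 5 h, 7 of these 15 were above 0 and 8 below, with a median of -0.002. Lrig1, a membrane inhibitor of ErbB receptors chosen after its values were seen, differed by 0.13 at 0 min and 0.55 at 5 h. Rab5a and Lrig3, named for their high signal, differed by 0.08 and -0.07 at 5 h. The phosphatase gene Ptprj was higher by 1.16 at 5 h than at 0 min after EPS, but by 0.64 with the mean of its probes.

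Of 18 measured genes that MAP kinase signalling is known to switch on, 13 were above 0 with EPS at 0 min and 15 at 5 h. Their medians were 0.26 and 0.25, against 0.02 and -0.03 over all genes. The share of all genes above 0 was not computed, and the list was chosen with earlier results known. Fos, an AP-1 subunit, was 2-fold higher at 0 min, by 1.24, and differed by 0.09 at 5 h. Dusp5, a phosphatase of ERK, was 2-fold higher at 5 h, by 1.16, but by 0.57 under normexp. Phlda1 and Egr1, named for their high signal, differed by 0.50 and 0.31 at 0 min and by 0.25 and -0.27 at 5 h.

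In time, Fos and Egr1 were lower at 5 h than at 0 min, as Errfi1 was: by -2.09 and -2.88 without EPS, and by -3.24 and -3.47 after EPS. Spry1, a Sprouty inhibitor of receptor signalling, differed by -1.13 after EPS and by -0.98 without EPS; with median centring it was at -0.95 after EPS, under 2-fold. Fosl1, another AP-1 subunit, was higher at 5 h by 1.96 without EPS and 1.87 after EPS, and Dusp4 by 1.14 after EPS. Between the EPS effects, Fos differed by -1.15 and Adam12 by -1.19. With the mean of its probes Adam12 was at 1.53.

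**Figure D4:**
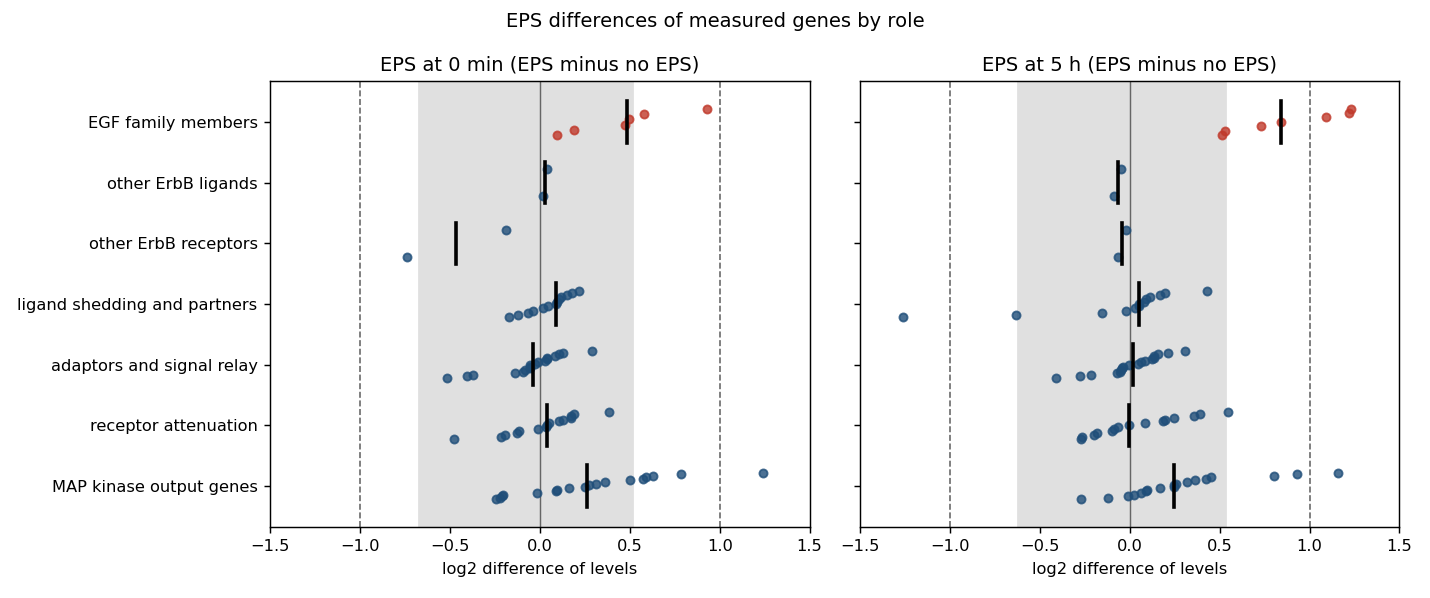
Log2 EPS differences of the measured genes of each list at 0 min and at 5 h, with a black bar at the list median, dashed lines at 2-fold and a grey band over the middle 95% of all measured genes. The EGF family members, in red, have medians of 0.48 and 0.84; the members were picked with results known and the lists were not tested against each other.

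EGF ligands are abundant in epithelia, so epithelial markers were read alongside. Of 8 markers, Epcam, Krt5 and Cldn4 were above background on no array and the other 5 on all 4, at dim levels. Their summed level was between 0.285 and 0.333 times the 75th percentile signal on the 4 arrays. It differed by -0.13 with EPS at 0 min and 0.04 at 5 h on the log2 scale. The sum of 8 fibroblast markers differed by 0.17 and -0.22 and that of 6 endothelial markers by 0.12 and -0.59, against 0.23 and -0.12 for muscle markers. That of 8 leukocyte markers differed by -0.13 and -0.17, that of 8 nerve markers by -0.65 and -0.17, and that of 5 adipocyte markers, 3 of them above background on no array, by 2.08 and -0.02. At 0 min, Nefl among the nerve markers had a level of -7.90 with EPS and -1.48 without. Plin1 among the adipocyte markers had -3.19 with EPS and -8.28 without, and was above background on that 1 EPS array alone. The sums are of unlogged signal, so 1 bright gene can set them. Of the endothelial markers, 3 were above background on no array. At 5 h Kdr, the brightest of them, read 0.89 with EPS and 1.52 without. Pecam1 read -4.26 and -4.02, and Vwf went the other way, at -3.97 and -4.26. Itgam was the brightest leukocyte marker, at 2.52 to 2.93. From 0 min to 5 h after EPS, the summed level differed by -0.44 for muscle, -0.46 for fibroblast, -0.05 for epithelial, -0.25 for leukocyte, 0.32 for nerve, -0.82 for endothelial and -1.99 for adipocyte markers. Without EPS the same differences were -0.09, -0.07, -0.22, -0.22, -0.16, -0.11 and 0.10. The part of these in the members' values was not tested.

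Genes with a pattern like that of a member were sought among 13007 named genes well above background on all 4 arrays, by the distance between levels centred on each gene's mean. For Ereg the nearest were Prg4 (0.25), Slpi (0.26) and Procr (0.47), and for Areg Procr (0.38), Pla2g4a (0.42) and Plek (0.53). For Egfr they were Mmp3 (0.06), Flacc1 (0.06) and Adamts4 (0.09), and for Nrg1 Ccnt2 (0.07), Nuak2 (0.08) and Lrrk2 (0.10). Hbegf had Csta2 (0.11), Gsap (0.16) and Sema4f (0.17), and Errfi1 had Mrgprd (0.18), Sh2d3c (0.26) and Kcnq1 (0.28). How many genes come near a member over 4 arrays was not counted, and the likeness is a description of these arrays.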

How the data were processed

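RNA of engineered muscle was hybridised to 4 single-colour (Cy3) Agilent arrays. Per the file headers, the deposited intensities were made with version 10.7.3.1 of Agilent Feature Extraction, which removed the background and a spatial trend. The authors' value table held the same intensities, equal within 0.1% for all 44397 spots of each array, with column medians of 57.6 (EPS 0 min), 75.2 (no EPS 0 min), 69.4 (EPS 5 h) and 64.0 (no EPS 5 h); it is linear and uncentred. Flags and other marks of the scanner software were used as deposited, per the file headers.

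The log2 of the processed intensity minus that of the array's 75th percentile over 43020 non-control spots was computed in Python 3.11.15. Outlier spots (112 to 141 per array) were left out, spots of a probe were averaged, and a gene took its brightest probe. A probe counted as well above background where over 50% of its kept spots did. The labels' labelling protocol names leukocytes, and all other fields name engineered muscle. For names, 26055 of 39429 probes matched RefSeq (GRCm38.p6) by accession. With 1 array per group there is no test; 2-fold is a size rule, and precision is limited by the number of arrays. All arrays are on 1 slide. Over 273 probes printed 10 times, the spot SD of a log2 EPS difference at 5 h was typically 0.08 (median), and 0.30 at its 95th percentile. Members and lists were chosen with earlier results of these data known; named genes are all members, list genes past 2-fold and the 2 of each list with the highest mean level, of which 1 gene is not reported here. Adam17 and Lrig1 fall outside this rule and were chosen after their values were seen. The steps were tested on simulated data made from 1 array. Changes larger than 2-fold were planted in genes that were not dim, with noise below the software's error. This checks the steps and says nothing of dim genes or of differences near 2-fold. Alternatives used limma 3.58.1 in R 4.3.3.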

Additional observations from a re-analysis of the deposited data

How the results depend on the processing

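Of 241 member values recomputed under 8 alternatives, 239 kept their sign and 235 stayed within the software's error. Changing the background filter or using the authors' value table could not change a member value, and keeping outlier spots changed none. The mean of probes could change Egfr alone, the only member with more than 1 probe. Much of this agreement was therefore fixed in advance. The sign changed for Egfr with EPS at 0 min (mean of probes, -0.05) and for Hbegf in time without EPS (quantile normalization, -0.03 against 0.01). Among members measured in the main setting, Egfr in time after EPS was the only value to cross 2-fold under these alternatives, as described above. Without a background filter, 7 of 8 members were at 2-fold in time after EPS, against 5 of 6, since Btc and Tgfa, not well above background on both arrays, were then counted. Under normexp background correction (offset 50), genes at 2-fold numbered 71 with EPS at 0 min (249 in the main setting), 74 with EPS at 5 h (225), 411 in time without EPS (869), 600 in time after EPS (1117) and 109 for the difference of EPS effects (361). Pathway list genes numbered 0 with EPS at 5 h and 1 for the difference. Without a background filter the gene counts were 2246, 2530, 3111, 3940 and 3978, and those of list genes 3 with EPS at 0 min and 4 for the difference. With the mean of probes, list genes numbered 2 with EPS at 0 min and 1 at 5 h. Areg in time was 2.08 without EPS and 2.49 after EPS under normexp, and Btc with EPS at 5 h was 0.17; the cause was not tested. Median centring set the median of all genes at 0.11 in time without EPS and 0.10 after EPS, against -0.02 and -0.08. No paired analysis was possible because each group holds 1 array.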

Other observations

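Areg and Ereg stand in a row of EGF family genes on chromosome 5, in the RefSeq order Epgn, Ereg, Areg and Btc, with Mthfd2l before it and Parm1 after it. Without EPS, Ereg and Areg were higher at 5 h than at 0 min by 3.21 and 2.60 on the log2 scale. Epgn differed by 0.37, Mthfd2l, a mitochondrial folate enzyme gene, by 0.42, and Parm1 by 0.09. With EPS at 5 h, Ereg and Areg differed by 1.22 and 0.84, Btc by 0.53, and Epgn, Mthfd2l and Parm1 by -0.09, 0.13 and 0.05. Cxcl1, a neutrophil chemokine gene 3 places before Epgn in that order, differed by 2.68 in time without EPS and by 1.81 with EPS at 5 h. Cxcl2, between Cxcl1 and Mthfd2l, was above background on 0 of the 4 arrays. This neighbourhood was looked at after the values of Areg and Ereg had been seen.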
